A study of Mus musculus with 36 samples.

Results

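Chromatin that was open in 3 of 4 tissue sources of cultured mouse mesenchymal stem cells (MSCs) and had no called peak in the remaining source was described. The members were taken from the peak lists of ATAC-seq, an assay in which the Tn5 transposase inserts sequencing adaptors into accessible DNA. Peak lines of 1 list with the same coordinates were merged into 1 region, and each tissue was left out in turn. Members were selected on −log10 q alone. A member was a region whose −log10 q (the significance that the peak caller MACS2 gave a summit) was above 7 in the lists of all 3 other tissues, and that overlapped no line of the left-out list, not even a weak one. This gave 4027 regions of the 149650 that remain when all 4 lists are merged where they overlap. Of these, 896 were closed in femoral bone marrow MSCs (fBM-MSCs), 1534 in vertebral bone marrow MSCs (vBM-MSCs), 400 in adipose tissue MSCs (A-MSCs) and 1197 in lung MSCs (P-MSCs). No region fell into 2 classes. Coordinates and summit of a member were those of the first open list in the order fBM-MSC, vBM-MSC, A-MSC, P-MSC. Members closed in fBM-MSCs thus have those of the vBM-MSC list, and the other classes those of the fBM-MSC list. "Closed" means here that the list held no line, and it is not a measurement of zero accessibility.

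The cells came from young adult C57BL6/J mice, and all 4 tissues were taken from the same 3 animals. They were wild type, and no experimental treatment was compared. Bone marrow cells were released by crushing femurs or vertebrae, and lung and adipose cells by collagenase. All were expanded in MesenCult medium with MesenPure and a Rock inhibitor on collagen I-coated dishes. Each culture is thus a mixed adherent population and not a clone. Each tissue had 1 peak list, made from 6 sequencing samples (3 replicates in 2 runs each), so the regions have no replicate error. The RNA-seq libraries used were 3 each of fBM-MSCs, A-MSCs and P-MSCs and 2 of vBM-MSCs, with 19569650 to 40517739 expected counts a library. The RNA of vBM-MSC replicate 3 is not used here.

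Accessible regions away from gene starts are mostly enhancers, which are bound by transcription factors and act on genes of the same chromosome. TEAD proteins carry the output of the Hippo pathway together with their co-activators Yap1 and Wwtr1, AP-1 dimers of Fos and Jun proteins open many enhancers of cultured fibroblast-like cells, and RUNX proteins with their partner Cbfb are needed for bone and blood formation. NFI and FOX proteins are further families that bind enhancers of mesenchymal cells. A region that only one tissue lacks is the reverse of a tissue-specific enhancer, and asks what an MSC source does without rather than what it adds.

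The cells were checked against marker genes in the RNA. All 4 of the positive surface markers (Itgb1, Cd44, Ly6a and Vcam1) had a mean of at least 1 TPM, the length-scaled share of a gene in all transcripts, in every tissue. The 3 negative markers summed to 1.19 to 7.87 TPM in vBM-MSCs, A-MSCs and P-MSCs and to 10.3 to 79.2 TPM in fBM-MSCs. Erythroid genes summed to at most 0.78 TPM in any library, and macrophage genes to 4.64 to 22.7 TPM, with Fcgr1 at 0 in every library. Epithelial genes summed to 41.7 to 67 TPM in A-MSCs and 52.4 to 60.9 in P-MSCs, against 2.18 to 12.9 in both marrow sources. Endothelial genes summed to 3.25 to 51.7 TPM in A-MSCs and 2.54 to 8.1 in P-MSCs, against at most 1.03 in marrow. A-MSCs also stood apart in mesothelial genes, with 92.6 to 141 TPM over the 7 of 8 markers measured, against at most 39 TPM in any other library. Adipocyte genes summed to 2.68 to 3.84 TPM in P-MSCs, with Adipoq, Plin1, Cidec, Lep and Retn at 0, and to 22 to 159 TPM elsewhere. The part of other cell types in the classes was not tested. In these bulk cultures, fewer cells of a type and less RNA or less open chromatin per cell cannot be told apart.

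The 6 windows of 151 bases below show what members look like. Each is centred on the highest summit and read from the GRCm38.p6 (mm10) plus strand. Capitals mark matches, on either strand, to AP-1 (TGANTCA), RUNX (TGTGGT), TEAD (GGAATG), FOX (TGTTTAC), the NFI half-site (TTGGCA) or the letters AGATAA bound by GATA factors. The first 5 are, for each class, the member outside promoters with the highest fold in its weakest open tissue that held the motif named, and they were picked for that match. The last had the highest fold but one among P-MSC members in the same order, and is shown because it lies in an intron of Mitf, whose RNA was measured.
Closed in fBM-MSCs, TEAD, chr9:101113433-101113583: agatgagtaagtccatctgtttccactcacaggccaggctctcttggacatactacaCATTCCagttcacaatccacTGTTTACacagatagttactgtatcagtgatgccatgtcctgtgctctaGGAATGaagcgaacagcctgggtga
Closed in vBM-MSCs, AP-1, chr12:91070662-91070812: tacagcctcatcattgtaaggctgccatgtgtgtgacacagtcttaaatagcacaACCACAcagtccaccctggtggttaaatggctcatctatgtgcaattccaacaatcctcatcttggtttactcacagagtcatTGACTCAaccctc
Closed in A-MSCs, NFI half-site, chr3:63137820-63137970: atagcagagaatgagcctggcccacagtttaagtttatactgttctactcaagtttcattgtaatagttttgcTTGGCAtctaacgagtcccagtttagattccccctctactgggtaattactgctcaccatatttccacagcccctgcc
Closed in A-MSCs, FOX, chr13:41352382-41352532: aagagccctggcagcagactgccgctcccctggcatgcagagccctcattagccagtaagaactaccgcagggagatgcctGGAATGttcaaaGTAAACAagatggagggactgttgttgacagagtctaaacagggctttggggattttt
Closed in P-MSCs, RUNX, chr11:8569741-8569891: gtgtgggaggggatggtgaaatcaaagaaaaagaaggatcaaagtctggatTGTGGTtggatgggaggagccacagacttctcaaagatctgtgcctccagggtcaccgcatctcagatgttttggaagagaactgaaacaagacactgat
Closed in P-MSCs, Mitf intron, chr6:97820615-97820765: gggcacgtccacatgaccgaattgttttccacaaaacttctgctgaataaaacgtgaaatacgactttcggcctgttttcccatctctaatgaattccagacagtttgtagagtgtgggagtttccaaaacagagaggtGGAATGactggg

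The fBM-MSC example (region chr9:101113282-101113712) lay in an intron, 38.7 kb from the start of Msl2, a subunit of a chromatin-modifying complex. Its fold enrichment over the genome-wide background was 17.7, 29.4 and 19.1 in the vBM-MSC, A-MSC and P-MSC lists. The window held TEAD letters at 2 places and FOX letters at 1. The vBM-MSC example (chr12:91070542-91070965), intronic and 24.9 kb from 5430427M07Rik, had folds of 20.6, 16.2 and 22.4 in the fBM-MSC, A-MSC and P-MSC lists. The NFI example of A-MSCs (chr3:63137540-63138178) was intergenic, 157 kb from Mme, which encodes the cell surface peptidase CD10, and its folds were 14.7, 25.4 and 14.0 in fBM-MSCs, vBM-MSCs and P-MSCs. The FOX example (chr13:41352113-41352775) lay 6.54 kb from the start of Nedd9, a scaffold protein of focal adhesions, with folds of 14.0, 13.2 and 8.09 in the same order. The RUNX example of P-MSCs (chr11:8569517-8570302) lay in an intron, 94.7 kb from Tns3, a tensin of cell adhesions, with folds of 19.9, 23.9 and 12.5 in the fBM-MSC, vBM-MSC and A-MSC lists. The Mitf region (chr6:97820416-97821105) was 13.6 kb from the nearest Mitf start and had folds of 17.3, 20.2 and 14.0 in fBM-MSCs, vBM-MSCs and A-MSCs.

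The classes differed in size. Of the regions above the threshold in the 3 other lists, those without a line in the left-out list were 2.70% for fBM-MSCs (896 of 33167), 4.48% for vBM-MSCs (1534 of 34266), 1.29% for A-MSCs (400 of 31113) and 3.66% for P-MSCs (1197 of 32716). A larger number had a line in the left-out list that stayed at or below 7, which were 2843, 3109, 1090 and 1896 regions in the same order. The 29623 regions above 7 in all 4 lists (with the coordinates of the fBM-MSC list) are used below for comparison. The lists themselves were of similar length, with 88381 to 99337 regions, of which 57.1% to 62.9% were above 7. The A-MSC list had the most lines above the threshold (59873 regions) and the vBM-MSC list the fewest (50763), which is the reverse order of their class sizes. The part of list depth in these counts was not tested.

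**Figure D1:**
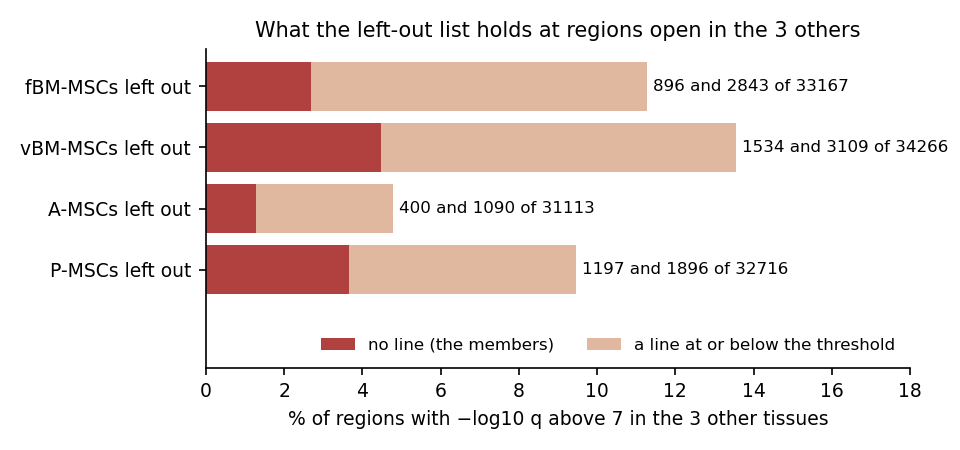
Percentage of regions above the −log10 q threshold of 7 in 3 tissues (x axis) that had no line (dark bar, the members) or only a line at or below the threshold (light bar) in the left-out tissue (y axis), with both counts and their total beside each bar. The vBM-MSCs had the longest bars and the A-MSCs the shortest, 1534 against 400 members.

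Because the −log10 q chose the members, their enrichment is a description. The smallest −log10 q of a member over its 3 open tissues began at 7.131 to 7.145, and the nearest regions left outside reached 6.285 to 6.332. Between 24.6% and 30.7% of each class lay below 8, and 85, 165, 34 and 148 members (closed in fBM-MSCs, vBM-MSCs, A-MSCs and P-MSCs) had a smallest value above 15. The median fold of members was 6.62 to 8.83 in every class and open tissue, below the medians of 11.8 to 14.7 at regions open in all 4 tissues. In members closed in fBM-MSCs the medians were 6.62 (vBM-MSCs), 8.46 (A-MSCs) and 8.09 (P-MSCs), and in those closed in vBM-MSCs they were 6.99 (fBM-MSCs), 8.09 (A-MSCs) and 8.83 (P-MSCs). Since the folds come from the lists that chose the members, and the lists differ in fold at all regions, nothing is read from their order.

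**Figure D2:**
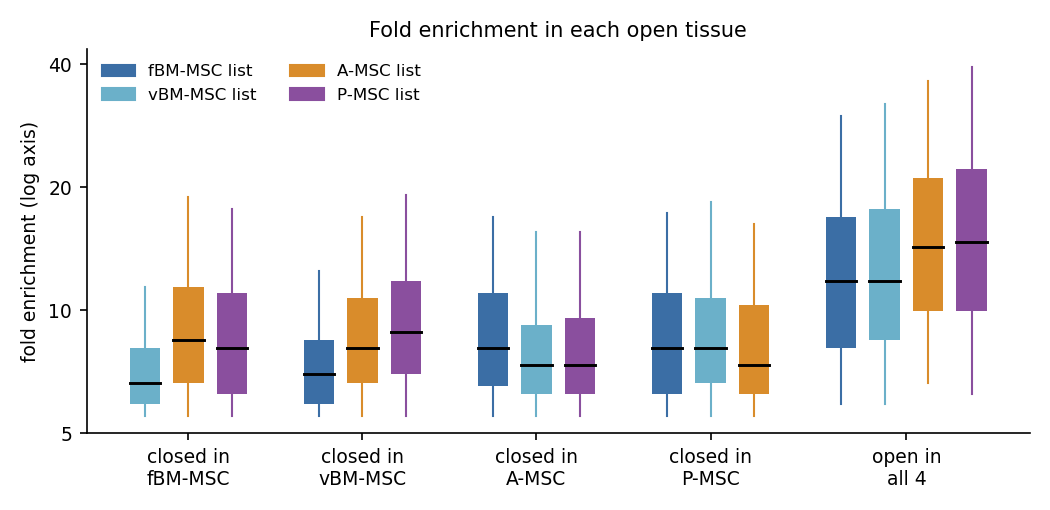
Fold enrichment (y axis, log scale) of the members of each class and of the regions open in all 4 tissues (x axis) in each list with a peak. Boxes span the 25th to 75th percentile of regions, lines the 5th to 95th, and black bars the median. The 25th percentiles of members lie between 5.89 and 6.99, and the regions open in all 4 tissues lie above them, with medians of 11.8 to 14.7.

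Members were rarely promoters. The summit lay within 1 kb of a transcription start in 7.25% of members closed in fBM-MSCs (65 regions, exact 95% interval 5.64% to 9.15%), 2.61% of those closed in vBM-MSCs (40 regions, 1.87% to 3.53%), 4.50% of those closed in A-MSCs (18 regions, 2.69% to 7.02%) and 4.34% of those closed in P-MSCs (52 regions, 3.26% to 5.66%). The share was 35.8% at regions open in all 4 tissues. The intervals cover counting error only, and regions are not replicates. The intervals of the fBM-MSC and vBM-MSC classes did not overlap, whereas those of the A-MSC and P-MSC classes overlapped both. Introns held 47.0% to 48.3% of the members of each class and intergenic DNA 41.4% to 47.4%. The median distance to the nearest start was 24.7 kb in the fBM-MSC class, 29.8 kb in the vBM-MSC class, 45.3 kb in the A-MSC class and 35.2 kb in the P-MSC class, compared with 8.41 kb at regions open in all 4 tissues. Members were also shorter, with median lengths of 389 to 470 bp against 626 bp, and 93.3% to 97.8% of them had a single summit against 77.3%. They held few CpG dinucleotides within 100 bp of the summit, with means of 3.32, 2.09, 2.84 and 2.81 in the 4 classes against 8.64. The median distance to the nearest line of the left-out list was 4.15 kb, 5.57 kb, 7.03 kb and 8.07 kb in the fBM-MSC, vBM-MSC, A-MSC and P-MSC classes. Between 6.75% and 11.6% had a line of that list within 500 bp.

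The windows of at most 1 Mb with the most members were listed for each class. Each was cut to span its first to last member before counting, so the shares below are raised by this choice. Whether members lie closer together than other regions was not tested. For fBM-MSCs the densest held 5 members, among the genes Kirrel, Insrr and Etv3l or around Farp1 and Mbnl2. In vBM-MSCs, 8 of the 25 regions above the threshold in the 3 other tissues around Lpp, a focal adhesion protein, were closed, and 7 of 11 near Cd180. In P-MSCs, 8 of 10 such regions around Ntrk3, the receptor for neurotrophin 3, were closed, as were 7 of 27 around Fbn1, Sema6d and Dut, 7 of 14 near Vstm2b and 5 of 14 near Gli2, a Hedgehog pathway factor. The densest A-MSC windows held only 3 members each, one of them beside Bnc2. The RNA of genes in these windows went in several directions. Lpp had 12.8, 15.1 and 10.5 TPM in fBM-MSCs, 28.9 and 29.4 in vBM-MSCs, 51.5, 48.2 and 44.1 in A-MSCs and 48, 48.2 and 45.5 in P-MSCs, so its level in vBM-MSCs was between those of the other tissues (log2 difference from the mean of the others −0.09 ± 0.11 SE, edgeR quasi-likelihood test, adjusted p = 0.599). Farp1 had 9.07 to 14 TPM in fBM-MSCs and 15 to 31.5 elsewhere, with no overlap (−0.85 ± 0.15, adjusted p = 0.00117 by edgeR). Mbnl2, in the same window, did not pass the test (−0.08 ± 0.11, adjusted p = 0.606 by edgeR). Dut, which encodes an enzyme of nucleotide metabolism, had 52.8 to 59.8 TPM in P-MSCs and 9.14 to 30.3 elsewhere, and was thus higher in the closed tissue (1.73 ± 0.11, adjusted p = 7e-07 by edgeR). Sema6d, in the same window, was also higher (1.53 ± 0.39, adjusted p = 0.00724 by edgeR), while Fbn1 did not pass the test (−0.46 ± 0.26, adjusted p = 0.181 by edgeR). Ntrk3, Cd180 and Gli2, which lie in dense windows, were at most 0.42, 0.08 and 0.12 TPM in any library and were not tested, so their regions lay beside genes with almost no RNA in any source.

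Sequence separated the classes. At members more than 1 kb from a start, the TEAD letters occurred within 100 bp of the summit in 36.1% of those closed in fBM-MSCs (300 of 831, exact 95% interval 32.8% to 39.5%). The share was 18.2% (16.3% to 20.3%) in the vBM-MSC class, 22.5% (18.4% to 27.0%) in the A-MSC class, 24.4% (21.9% to 27.0%) in the P-MSC class and 23.2% (22.6% to 23.8%) at regions open in all 4 tissues. The fBM-MSC interval lay above all others. The same class was low in RUNX letters, 14.8% (12.5% to 17.4%) against 23.3% at regions open in all 4 tissues.

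AP-1 letters gave the widest range. They occurred in 63.3% of distal members closed in vBM-MSCs (946 of 1494, 60.8% to 65.8%), in 49.7% of those closed in A-MSCs (44.6% to 54.9%), in 29.4% of those closed in P-MSCs (26.8% to 32.2%) and in 25.2% of those closed in fBM-MSCs (22.2% to 28.2%). Regions open in all 4 tissues held them in 48.1% (47.4% to 48.8%). The classes of the 2 bone marrow sources were thus at opposite ends for AP-1 and for TEAD. In GATA letters their intervals overlapped, with 11.9% (9.79% to 14.3%) and 11.6% (10.1% to 13.4%) against 4.97% in the A-MSC class, 6.20% in the P-MSC class and 6.73% at regions open in all 4 tissues.

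In the A-MSC class, the NFI half-site occurred in 25.1% of distal members (96 of 382, 20.9% to 29.8%), compared with 10.1% to 14.9% in the other classes and 15.4% (14.9% to 15.9%) at regions open in all 4 tissues. FOX letters occurred in 6.02% (23 of 382, 3.85% to 8.90%), against 3.16% (2.91% to 3.41%) at regions open in all 4 tissues, 1.67% (1.09% to 2.46%) in the vBM-MSC class and 2.10% (1.35% to 3.10%) in the P-MSC class. The interval of the fBM-MSC class (2.77%, 1.76% to 4.12%) overlapped that of the A-MSC class. In the P-MSC class, RUNX letters occurred in 32.0% (366 of 1145, 29.3% to 34.8%), against 23.3% (22.7% to 23.9%) at regions open in all 4 tissues and 30.1% (25.5% to 35%) in the A-MSC class, whose interval overlapped. A match is a description of letters and not a bound site. The median GC content of the distal windows was 46.3% to 47.8% in the classes and 48.8% at regions open in all 4 tissues.

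**Figure D3:**
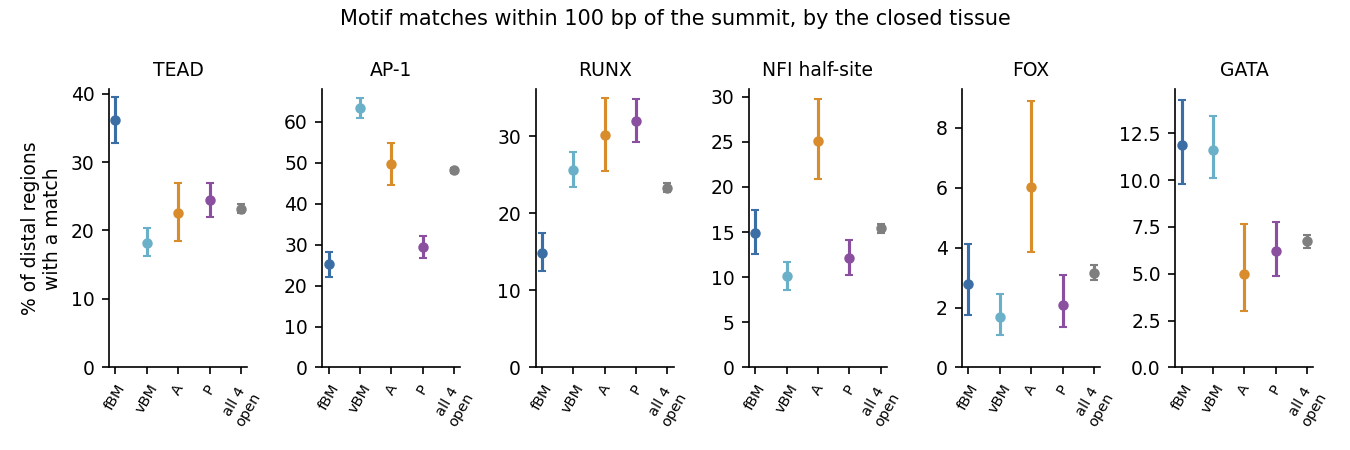
Percentage of regions more than 1 kb from a start (y axis, from 0, separate scale for each panel) with a match to 6 motifs within 100 bp of the summit, for the 4 classes named by the closed tissue and for regions open in all 4 tissues (x axis). Points are shares and bars exact 95% binomial intervals, which cover counting error only. TEAD was highest in the class closed in fBM-MSCs (36.1%), AP-1 in that closed in vBM-MSCs (63.3%), and the NFI half-site in that closed in A-MSCs (25.1%).

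A count of all sequences of 6 bases within the same windows, which uses no list of motifs, was led by the same letters in the fBM-MSC and vBM-MSC classes, and by other letters in the A-MSC and P-MSC classes. CATTCC, the reverse complement of the TEAD letters, was the most raised in the fBM-MSC class (36.1% of distal members against 18.2%, 22.5% and 24.4% in the vBM-MSC, A-MSC and P-MSC classes). GAGTCA, part of AP-1, was the most raised in the vBM-MSC class (61.3% against 25.6%, 46.3% and 32.8% in the fBM-MSC, A-MSC and P-MSC classes). In the A-MSC class the leading sequences were TAAACA, which lies within the reverse complement of the FOX letters (25.9% against 9.64% to 16.4%), and ATAAAC (23.6%), followed by TGCCAA, the reverse complement of the NFI half-site (25.1%). In the P-MSC class they were CCCACA (29.7% against 18% to 19%), GTGGGA (23.2%) and CCACAG (39.5%), and then ACCACA (32.0%), the reverse complement of the RUNX letters.

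The motif that led each class was followed over the states of the left-out tissue. Among distal regions above 7 in vBM-MSCs, A-MSCs and P-MSCs, TEAD letters occurred in 36.1% where fBM-MSCs had no line, in 29.0% (27.2% to 30.8%) where they had a line at or below 7, and in 24.2% (23.6% to 24.8%) where they were above 7. For AP-1 and vBM-MSCs the steps were 63.3%, 55.8% (54.0% to 57.7%) and 48.1%. For the NFI half-site and A-MSCs they were 25.1%, 21.3% (18.8% to 24.0%) and 15.4%. For RUNX and P-MSCs they were 32.0%, 27.5% (25.4% to 29.7%) and 23.3%. In each of these 4 series the regions with a weak line lay between the other groups. The order did not hold for every motif. RUNX in the A-MSC class gave 30.1%, 22.2% and 23.3%, TEAD in the A-MSC class 22.5%, 18% and 23.2%, and TEAD in the P-MSC class 24.4%, 21.4% and 23.2%. Members that were strong in all open tissues, with a smallest −log10 q above 15, held AP-1 letters in 67.5% of the vBM-MSC class (110 of 163, 59.7% to 74.6%), with 58.8% (40.7% to 75.4%) in the A-MSC class, 25.7% in the P-MSC class and 22.0% in the fBM-MSC class. RUNX letters occurred in 35.4% of such members of the P-MSC class (51 of 144, 27.6% to 43.8%). This interval overlapped those of the A-MSC class (35.3%, 19.7% to 53.5%) and the vBM-MSC class (30.7%, 23.7% to 38.4%). The NFI share there was 38.2% (13 of 34, 22.2% to 56.4%) in the A-MSC class, with 25.6% (16.6% to 36.4%) in the fBM-MSC class, so that these intervals overlapped. The TEAD share was 32.9% (27 of 82, 22.9% to 44.2%) in the fBM-MSC class and 30.6% (23.2% to 38.8%) in the P-MSC class. It was 19.6% (13.8% to 26.6%) in the vBM-MSC class and 20.6% (8.70% to 37.9%) in the A-MSC class. Among these stronger members the fBM-MSC interval overlapped those of all other classes, and overlap does not show that shares are equal. FOX letters occurred in 0 of 34 such A-MSC members, for which the exact interval reaches 10.3%.

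The RNA was not used to choose the regions, and it was compared next. Each tissue was tested against the mean of the 3 others over 12509 genes with the quasi-likelihood test of edgeR, two-sided, with Benjamini-Hochberg adjustment at 0.05. The 4 comparisons share their libraries. Differences are on the log2 scale, as the closed tissue minus the mean of the others. Genes with a member within 1 kb of a start came first.

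For regions closed in P-MSCs, 18 of the 32 genes tested (56.2%) were lower in P-MSCs, against a background of 22.3% of all genes tested, and 4 (12.5%) were higher, against 22.3%. The class had 57 such genes, of which 52 had RNA values. Those of the 52 that were not tested were below the filter. For regions closed in A-MSCs, 6 of 11 genes tested (54.5%) were lower in A-MSCs against a background of 13.9%, and 1 (9.09%) was higher against 16.0%. For regions closed in fBM-MSCs, 13 of 47 (27.7%) were lower in fBM-MSCs against 18.7%, and 7 (14.9%) were higher against 21.0%. For regions closed in vBM-MSCs, 1 of 20 (5%) was lower in vBM-MSCs against a background of 9.49%, and 1 (5%) was higher against 12.6%. The share of lower genes was thus above the background in the P-MSC and A-MSC classes. In the fBM-MSC class it was nearer to the background (27.7% against 18.7%), and this difference was not tested. In the vBM-MSC class it was below the background, and the comparison there rests on 2 libraries. The median log2 differences were −0.56, −2.24, −0.12 and −0.02 for the P-MSC, A-MSC, fBM-MSC and vBM-MSC classes, beside −0.01, 0.00, 0.03 and 0.03 over all genes.

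The genes nearest to a member within 50 kb, a set added after the data were seen, gave larger numbers. In P-MSCs 158 of 426 (37.1%) were lower and 55 (12.9%) higher. In A-MSCs 44 of 128 (34.4%) were lower and 15 (11.7%) higher. In fBM-MSCs 121 of 423 (28.6%) were lower and 62 (14.7%) higher. In vBM-MSCs 65 of 569 (11.4%) were lower and 74 (13.0%) higher, near the backgrounds given above, and these counts fell to 31 and 37 without vBM-MSC replicate 1. Genes nearest to regions open in all 4 tissues were near the background in each comparison, with 22.2%, 14.4%, 19.1% and 9.48% lower in P-MSCs, A-MSCs, fBM-MSCs and vBM-MSCs. Genes nearest to regions with only a weak line in the left-out list gave 36.0%, 27.6%, 23.1% and 10.3% in the same order. Leaving out genes with a member at their own promoter gave 35.6%, 32.5%, 28.7% and 11.7%.

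**Figure D4:**
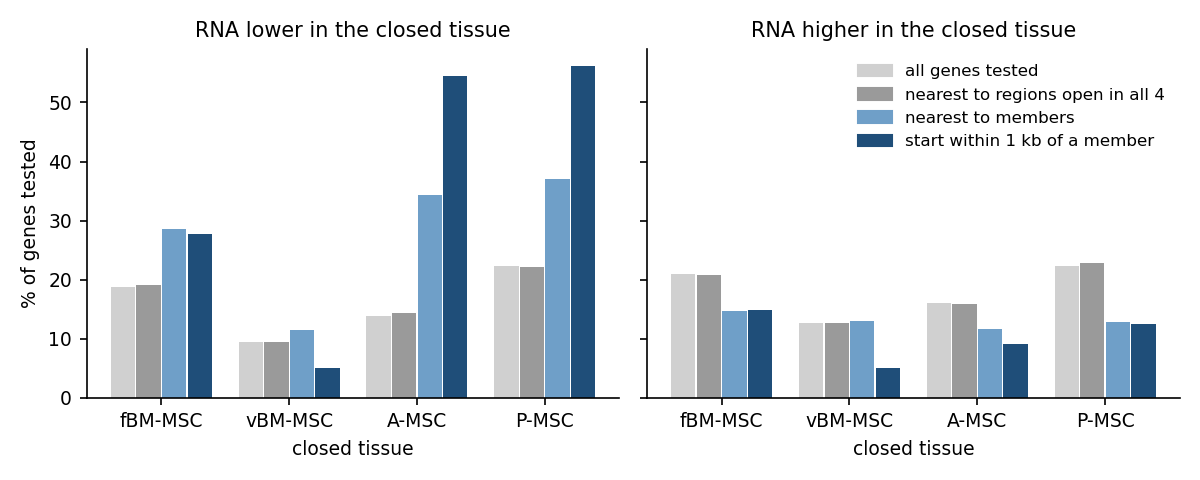
Percentage of genes tested (y axis, from 0) whose RNA was lower (left) or higher (right) in the closed tissue than in the mean of the 3 others (edgeR, adjusted p under 0.05), for all genes, genes nearest within 50 kb to regions open in all 4 tissues, genes nearest to members and genes with a member within 1 kb of their start. The share lower is above the grey bars in fBM-MSCs, A-MSCs and P-MSCs (28.6%, 34.4% and 37.1% of nearest genes), and close to them in vBM-MSCs (11.4%).

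In P-MSCs, the promoter genes that were lower included enzymes and secreted proteins. Sod3, the extracellular superoxide dismutase, had 93.2, 68.6 and 156 TPM in fBM-MSCs, 142 and 112 in vBM-MSCs, 15.3, 12.2 and 18.9 in A-MSCs and 7.31, 3.38 and 5.08 in P-MSCs. All P-MSC libraries were below all others (log2 difference −3.63 ± 0.35 SE, adjusted p = 1.07e-05 by edgeR). Its region (chr5:52363603-52364106, 103 bp from the start) had folds of 10.3, 11.4 and 5.52 in fBM-MSCs, vBM-MSCs and A-MSCs. Fah, the last enzyme of tyrosine breakdown, had 37.1, 48.5 and 52 TPM in fBM-MSCs, 41.3 and 42.6 in vBM-MSCs, 22.2, 21.4 and 21.4 in A-MSCs and 4.57, 6.35 and 5.4 in P-MSCs, with no overlap (−2.81 ± 0.15, adjusted p = 2.63e-07 by edgeR). Its region, 662 bp from the start, had folds of 6.99, 14.3 and 8.09 in fBM-MSCs, vBM-MSCs and A-MSCs, so the order of the folds in the open tissues was not that of the RNA. Acot11, an acyl-CoA thioesterase, was between 1.13 and 4.13 TPM in the other tissues and between 0.07 and 0.23 in P-MSCs (−4.03 ± 0.37, adjusted p = 8.44e-06 by edgeR). Tmem176a, a membrane protein, was between 38.8 and 312 TPM in the other tissues and between 10.4 and 13 in P-MSCs (−3.12 ± 0.45, adjusted p = 0.000203 by edgeR). AI607873 was at 0 to 0.64 TPM in P-MSCs and 0.3 to 4.46 elsewhere, with overlap (−2.57 ± 0.94, adjusted p = 0.043 by edgeR), and lost its call under most ways of leaving out a library.

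The P-MSC promoter genes that were higher had smaller differences. Igf1r, the receptor of insulin-like growth factor 1, had 7.16, 7.88 and 7.01 TPM in P-MSCs and 3.63 to 5.52 in the other tissues (0.56 ± 0.09, adjusted p = 0.000341 by edgeR). Its region lay 997 bp from the start, just inside the promoter window, at a fold of 5.52 in all 3 open tissues. Map2k3, a kinase of the p38 pathway, and its antisense gene Map2k3os shared one region, with differences of 0.30 ± 0.10 (adjusted p = 0.027 by edgeR) and 0.95 ± 0.22 (adjusted p = 0.0048 by edgeR). The libraries do not mark strand, so reads of this pair cannot be told apart. Obfc1, a telomere maintenance gene, was 0.77 ± 0.23 higher (adjusted p = 0.0166 by edgeR).

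In A-MSCs, the 6 lower promoter genes had large differences at mostly low levels. Col10a1, the collagen of hypertrophic cartilage, had 2.27, 1.35 and 7.75 TPM in fBM-MSCs, 4.51 and 13.8 in vBM-MSCs, 0, 0.05 and 0.05 in A-MSCs and 0.02, 0.13 and 0.11 in P-MSCs. Both non-marrow sources were thus near 0, although the region 173 bp from the start (chr10:34389609-34390125) was open in P-MSCs with a fold of 7.36 (log2 difference in A-MSCs −5.12 ± 0.91, adjusted p = 0.00183 by edgeR). Anxa8, an annexin, had 295, 303 and 151 TPM in fBM-MSCs, 63.4 and 92.5 in vBM-MSCs, 4.17, 5.28 and 6.53 in A-MSCs and 11.4, 11.7 and 9.72 in P-MSCs, with the A-MSC libraries below all others (−3.35 ± 0.25, adjusted p = 6.41e-06 by edgeR). The peak at its start (chr14:34085390-34086168) had folds of 14.0, 11.8 and 7.36 in fBM-MSCs, vBM-MSCs and P-MSCs. Mllt3, a subunit of the super elongation complex, was between 0.9 and 1.09 TPM in A-MSCs and between 2.19 and 13.6 elsewhere (−2.24 ± 0.21, adjusted p = 2.99e-05 by edgeR). Ptpn22, a tyrosine phosphatase of immune cells, was at 39.3, 14.2 and 3.18 TPM in the fBM-MSC libraries and at most 2.54 in any other, with 0.09, 0 and 0.42 in A-MSCs (−4.06 ± 0.96, adjusted p = 0.00864 by edgeR). The region at its start (chr3:103859828-103860668) had folds of 21.7, 16.9 and 6.62 in fBM-MSCs, vBM-MSCs and P-MSCs. Nostrin was at 0 to 0.14 TPM in A-MSCs, 0.29 to 1.13 in both marrow sources and 4.14 to 4.95 in P-MSCs (−4.49 ± 0.93, adjusted p = 0.0045 by edgeR). Mdga2 had no count in the A-MSC libraries, which puts A-MSCs at least 61.2-fold below the mean of the other tissues when set against a floor of 3 counts over the group, although 1 fBM-MSC library had no count either. Slc14a1, a urea transporter, was called higher, but its A-MSC level of 0.07 to 0.19 TPM was below the 2.15 to 3.35 of P-MSCs and above the bone marrow libraries, which were all at 0. On the scale of log2(TPM + 1) its difference was −0.45, so it has no firm direction.

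In fBM-MSCs, Cnn1, the smooth muscle calponin, had 11, 34 and 15.9 TPM in fBM-MSCs, 254 and 112 in vBM-MSCs, 579, 761 and 717 in A-MSCs and 193, 221 and 269 in P-MSCs, with no overlap (log2 difference −3.91 ± 0.40, adjusted p = 2.88e-05 by edgeR). Its region (chr9:22099022-22099370), 6 bp from the start, had folds of 5.52, 16.9 and 10.3 in vBM-MSCs, A-MSCs and P-MSCs. Of the 10 smooth muscle contractile genes, 8 were lower in fBM-MSCs and none higher (background 18.7% and 21.0%), and Cnn1 was the only one with a promoter member. The 6 skeletal muscle markers summed to 9.24 to 20.5 TPM in fBM-MSCs, 55.7 to 496 in vBM-MSCs, 1034.6 to 1272.7 in A-MSCs and 716 to 785 in P-MSCs, all from Des and Acta1, which were both lower in fBM-MSCs, with Myod1, Myog, Myf5 and Pax7 at 0. Their part in the result was not tested. Hoxa5, a homeobox gene of the anterior body axis, had 0.45, 1.22 and 1.95 TPM in fBM-MSCs against 3.67 and 16.6 in vBM-MSCs, 8.23, 11.7 and 9.99 in A-MSCs and 20.5, 18 and 23.2 in P-MSCs (−3.30 ± 0.48, adjusted p = 0.000295 by edgeR). The region at its start (chr6:52203857-52204971) had folds of 12.1, 13.6 and 15.4 in vBM-MSCs, A-MSCs and P-MSCs. Hoxb4 also had a member 397 bp from its start, but stayed at or below 0.35 TPM in all libraries and was not tested. Over all HOX genes, 11 of 26 tested were lower in fBM-MSCs and 11 higher. Efemp1, an extracellular matrix fibulin, had 48, 26.9 and 34.3 TPM in fBM-MSCs and 120 to 543 elsewhere, with no overlap (−2.68 ± 0.21, adjusted p = 6.8e-06 by edgeR). Mbp, the myelin basic protein gene, and Ptprb, a receptor phosphatase of endothelium, were low throughout, at most 2.38 and 4.61 TPM. Mbp differed by −2.90 ± 0.75 (adjusted p = 0.00951 by edgeR) and overlapped with vBM-MSCs. Ptprb differed by −3.00 ± 0.56 (adjusted p = 0.00146 by edgeR) and overlapped with A-MSCs. Igsf9 had no count in fBM-MSCs, at least 37.4-fold below the mean of the others on the same floor, but at most 1.38 TPM in any library.

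Of the fBM-MSC promoter genes that were higher, Zfyve1 (5.8 to 8.64 TPM against 3.41 to 6.85) changed by 0.69 ± 0.16 (adjusted p = 0.00512 by edgeR) and Zbtb7c by 1.93 ± 0.36 (adjusted p = 0.00155 by edgeR). Clic5 and Mtus2 were at most 0.72 and 2.28 TPM in any library, and their fBM-MSC and vBM-MSC libraries overlapped. En1, a homeobox factor with a member 156 bp from its start, was at 0.12 to 1.18 TPM in all tissues, with a difference of 0.12 ± 0.71 (adjusted p = 0.907 by edgeR).

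In vBM-MSCs, the 2 called genes went in opposite directions. Csf1r, the receptor of macrophage colony-stimulating factor, had 0.89, 0.6 and 0.73 TPM in fBM-MSCs, 1.16 and 0.61 in vBM-MSCs, 6.56, 5.69 and 5.46 in A-MSCs and 2.64, 2.76 and 2.21 in P-MSCs. The marrow sources overlapped, although the region 34 bp from the start was open in fBM-MSCs at a fold of 6.25, beside 7.73 and 11 in A-MSCs and P-MSCs (−1.33 ± 0.31, adjusted p = 0.0103 by edgeR, no longer called without vBM-MSC replicate 2). Csf1r is among the 8 macrophage markers, which summed to 4.64 to 7.04 TPM in vBM-MSCs. The sums were 15.7 to 22.7 in fBM-MSCs, 12.3 to 14.9 in A-MSCs and 12.9 to 14.8 in P-MSCs. Of the 3 tested, 2 were lower in vBM-MSCs and none higher, beside 9.49% and 12.6% of all genes. Their part in the result was not tested. Chn1, a GTPase-activating protein that turns Rac off, had 15.7 and 16.7 TPM in vBM-MSCs, above 6.27, 11 and 11.5 in fBM-MSCs and all libraries of the other sources (2.26 ± 0.18, adjusted p = 1.12e-05 by edgeR). Pdgfra, a growth factor receptor used to mark MSCs, had a member 251 bp from its start and 1.81 and 4.48 TPM in vBM-MSCs, between fBM-MSCs (0.27 to 0.76) and the other sources (5.74 to 7.93). Its difference was −0.01 ± 0.32 (adjusted p = 0.988 by edgeR). Kcnab1, a potassium channel subunit nearest to 3 members, was lower (−1.44 ± 0.34, adjusted p = 0.0121 by edgeR) at 5.65 and 12.1 TPM, but within the range of the fBM-MSC libraries (4.17 to 12.8).

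**Figure D5:**
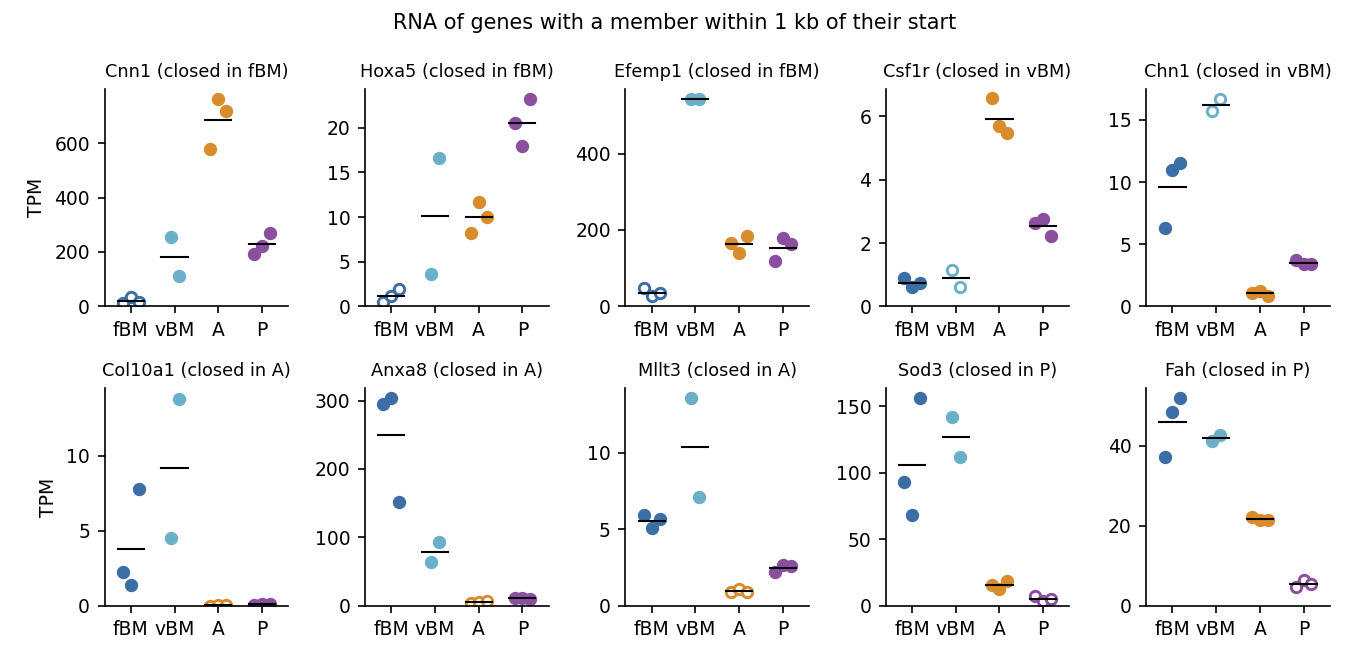
Level in each RNA-seq library (points, TPM on the y axis from 0, separate scale for each panel) of 10 genes with a member within 1 kb of their start, by tissue (x axis), with open points for the closed tissue and bars for the mean of 2 or 3 libraries. In 8 of the panels (Cnn1, Hoxa5, Efemp1, Anxa8, Mllt3, Sod3, Fah and the reverse case of Chn1) the closed tissue does not overlap any other, whereas for Csf1r and Col10a1 it overlaps another tissue.

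The genes nearest to the windows shown above were mixed. Mme was at 0 to 0.01 TPM in A-MSCs, 2.69 to 10.4 in both marrow sources and 0 to 0.13 in P-MSCs, where its region was nevertheless open (A-MSC difference −7.69 ± 1.22, adjusted p = 0.000925 by edgeR). Nedd9 was at 5.15 to 6.79 TPM in A-MSCs, overlapping P-MSCs (4.69 to 5.41) and below both marrow sources (9.88 to 35.9), with a difference of −0.97 ± 0.16 (adjusted p = 0.00097 by edgeR). Mitf, a factor of pigment cells and osteoclasts, had 0.17, 0.17 and 0.26 TPM in P-MSCs against 0.71 to 2.32 elsewhere, with no overlap (−2.74 ± 0.35, adjusted p = 8.47e-05 by edgeR). Msl2 was at 1.85 to 2.31 TPM in fBM-MSCs and 2.69 to 5.11 elsewhere (−0.73 ± 0.16, adjusted p = 0.00368 by edgeR). Tns3 was at 38.7 to 40.6 TPM in P-MSCs and 25.1 to 44.6 elsewhere (0.15 ± 0.11, adjusted p = 0.291 by edgeR).

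The RNA of the factor families of the letters described above was set beside the motif shares. The lists are short, and a factor's RNA does not measure its binding. For TEAD in fBM-MSCs, 4 of the 6 genes tested were lower and none higher, beside 18.7% and 21.0% of all genes. In each alternative fit 4 were lower, and 0 to 1 were higher. Tead1 had 3.73, 2.68 and 2.08 TPM in fBM-MSCs and 4.73 to 6.64 elsewhere, Tead2 6.18, 9.77 and 7.24 against 12.3 to 28.2, Tead3 3.51, 4.48 and 2.56 against 5.02 to 9.47, and Tead4 1.1, 1.42 and 0.59 against 1.81 to 8.41. For these 4 genes, every fBM-MSC library was below every other library. The log2 differences were −0.96 ± 0.17 for Tead1 (adjusted p = 0.000906 by edgeR), −1.15 ± 0.15 for Tead2 (adjusted p = 0.000165 by edgeR), −1.01 ± 0.24 for Tead3 (adjusted p = 0.00683 by edgeR) and −1.86 ± 0.34 for Tead4 (adjusted p = 0.00134 by edgeR). The co-activators Yap1 (−0.19 ± 0.14, adjusted p = 0.311 by edgeR) and Wwtr1 (0.27 ± 0.11, adjusted p = 0.0823 by edgeR) did not pass the test.

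For RUNX in P-MSCs, Runx1 (−0.59 ± 0.14, adjusted p = 0.0043 by edgeR), Runx2 (−0.85 ± 0.26, adjusted p = 0.0212 by edgeR) and Cbfb (−0.53 ± 0.15, adjusted p = 0.0134 by edgeR) were lower. For each of these 3 genes the P-MSC libraries overlapped those of other tissues, Runx1 (4.05 to 4.57 TPM) those of fBM-MSCs and vBM-MSCs, Runx2 (2.3 to 2.96) those of vBM-MSCs and A-MSCs, and Cbfb (31.1 to 35) those of A-MSCs. Runx3, at 0 to 0.1 TPM in P-MSCs, did not pass the test. Of the 4 genes, 3 were thus lower, against 22.3% of all genes tested, and from 1 to 4 over the alternative fits. In A-MSCs, whose class held RUNX letters in 30.1% of members beyond promoters, Runx3 was lower and Runx1 higher, beside 13.9% and 16.0% of all genes. Over the alternative fits 0 to 1 of the 4 were lower in A-MSCs and 1 was higher. In fBM-MSCs, with 14.8%, none of the 4 was lower and 3 were higher, beside 18.7% and 21.0% of all genes. Over the alternative fits 2 to 3 were higher in fBM-MSCs. For FOX in A-MSCs, 6 of the 10 genes tested were lower and none higher, beside 13.9% and 16.0% of all genes, with 4 to 7 lower over the alternative fits. The largest differences were those of Foxd1 (−5.97 ± 1.09, adjusted p = 0.00212 by edgeR), Foxc1 (−3.07 ± 0.52, adjusted p = 0.00142 by edgeR) and Foxl1 (−3.04 ± 0.71, adjusted p = 0.00789 by edgeR), all at most 6.3 TPM in any library. The A-MSC libraries overlapped those of P-MSCs for Foxd1 (0 to 0.02 TPM beside 0 to 0.1) and for Foxc1 (0.09 to 0.28 beside 0.27 to 0.77), and for both genes the marrow sources were higher, at 0.55 to 6.3 and 1.36 to 3.61 TPM. For Foxl1 (0.03 to 0.38) they were below every other library. Foxp1, the highest in level of the 6, had 7.43, 6.66 and 7.17 TPM in A-MSCs and 7.58 to 23.4 elsewhere. Of the NFI genes, listed after the motif shares were seen, Nfib (−0.91 ± 0.16, adjusted p = 0.00188 by edgeR) and Nfic (−0.36 ± 0.12, adjusted p = 0.034 by edgeR) were lower in A-MSCs, while Nfia and Nfix did not pass the test. Over the alternative fits 1 to 2 of the 4 were lower, beside 13.9% of all genes. These genes, Nfib and Nfic, were also lower in vBM-MSCs, with differences of −0.59 ± 0.19 (adjusted p = 0.0407 by edgeR) for Nfib and −0.52 ± 0.14 (adjusted p = 0.018 by edgeR) for Nfic, while Nfix was higher (0.64 ± 0.13, adjusted p = 0.00488 by edgeR), beside 9.49% and 12.6% of all genes. Over the alternative fits 0 to 2 of the 4 were lower in vBM-MSCs, and NFI letters occurred in 10.1% of distal members of that class.

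AP-1 in vBM-MSCs went the other way. None of the 8 AP-1 genes tested was lower in vBM-MSCs and 4 were higher, beside 9.49% and 12.6% of all genes. Fos had 23.9 and 24.7 TPM in vBM-MSCs against 1.44 to 3.04 in fBM-MSCs, 6.42 to 7.49 in A-MSCs and 4.13 to 5.99 in P-MSCs (2.49 ± 0.21, adjusted p = 1.56e-05 by edgeR). Fosb (1.31 ± 0.36, adjusted p = 0.0235), Junb (0.80 ± 0.20, adjusted p = 0.0153) and Jund (0.67 ± 0.22, adjusted p = 0.0492, all by edgeR) were higher as well, and over the alternative fits between 1 and 4 of the genes were called higher. The regions that vBM-MSCs lacked were thus the richest in AP-1 letters, while vBM-MSCs had the highest Fos RNA of the 4 sources. The fBM-MSC class, low in AP-1 letters, came with 4 of 8 AP-1 genes lower in fBM-MSCs and 1 higher, beside 18.7% and 21.0% of all genes.

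Of the 4 GATA genes tested, 3 were lower in fBM-MSCs (Gata2, Gata3 and Gata4) and 2 in vBM-MSCs (Gata3 and Gata6), beside 18.7% and 9.49% of all genes. None was higher in either source. Over the alternative fits 1 to 4 were lower in fBM-MSCs and 0 to 3 in vBM-MSCs. Gata2 had 2.42 to 5.01 TPM in fBM-MSCs, below every other library (6.74 to 21.6), with a difference of −1.89 ± 0.26 (adjusted p = 0.000211 by edgeR). For Gata3, Gata4 and Gata6 the libraries of the marrow sources overlapped each other. In A-MSCs 4 of the 4 were higher and in P-MSCs 3, beside 16.0% and 22.3% of all genes, and these contrasts share their libraries with those of the marrow sources.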

How the data were processed

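The authors trimmed the ATAC-seq reads with Trim Galore, kept unique Bowtie alignments to mm10, removed duplicates with Picard, shifted reads for Tn5 and dropped blacklisted regions. MACS2, run without a model or local background, gave 1 deposited list per tissue over pooled samples, with fold enrichment (a ratio to the genome-wide background) and −log10 q for each summit. RNA-seq libraries (Smart-seq2, not strand-specific) were aligned with STAR, and the authors deposited RSEM expected counts, TPM and FPKM, the last not used here. The MACS2 display score that the authors deposited was not used either. Expected counts were rounded. Genes with at least 1 CPM in at least 2 libraries were tested in R 4.3.3 with edgeR 4.0.16 (TMM, quasi-likelihood, 11 libraries, closed tissue against the mean of the others, Benjamini-Hochberg), checked first on simulated data. DESeq2 1.42.0 and limma 3.58.1 were alternatives. P-values measure the spread between these libraries, and the mouse behind each library is not given in the sources used here. Annotation and sequence came from RefSeq for GRCm38.p6, chromosomes 1 to 19. Motif shares carry exact 95% binomial intervals.

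The members and lists were chosen with earlier results of these data known. Named promoter genes were, per class, the 6 lower and 4 higher with the largest difference among those called, and listed genes with a member at their start. In all, 22 motifs were searched on both strands within 100 bp of the summit. Beside the 6 printed, they were C/EBP (TTGCNNAA), T-box (AGGTGTG), posterior HOX (TTTATGG), homeodomain (TAATTA), PITX (TAATCC), E-boxes (CAGCTG and CAGATG), SOX (ACAAAG), ETS (CCGGAA), SP/KLF (GGGCGG), NRF1 (GCGCATGC), STAT (TTCNNNGAA), ZIC (CAGCAGG), a nuclear receptor half-site (AGGTCA), NF-kB (GGGANTTCC) and CTCF. One gene that this rule names is not reported here.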

Additional observations from a re-analysis of the deposited data

How the results depend on the processing

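The class sizes moved with the threshold. The vBM-MSC class was the largest and the A-MSC class the smallest under the 3 alternatives given next, while the fBM-MSC class passed the P-MSC class when weaker lines were allowed. They were 1887, 2780, 799 and 2239 regions (closed in fBM-MSCs, vBM-MSCs, A-MSCs and P-MSCs) at −log10 q above 5, 85, 165, 34 and 148 above 15, and 3739, 4643, 1490 and 3093 with weaker lines allowed in the left-out list. The promoter share in the same order was 3.53%, 1.21%, 0% and 2.70% above 15 and 12.4%, 6.05%, 10.1% and 8.86% with weaker lines allowed. It was 3.78% for vBM-MSCs above 5, 5.04% for fBM-MSCs with no line within 500 bp, and 4.69%, 1.56% and 2.84% for fBM-MSCs, vBM-MSCs and P-MSCs with promoters within 500 bp.

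Regions above 15 left few genes. Promoter genes lower were then 2, 0, 0 and 1 and none was higher (0 in each class), and nearest genes within 50 kb were 16, 9, 4 and 19 lower and 3, 7, 0 and 6 higher. With promoters within 500 bp, 11 genes were lower in P-MSCs, and 2, 0, 0 and 0 were higher. In vBM-MSCs, 2 promoter genes were lower by DESeq2 and 2 by limma-trend on log2(TPM + 1). In A-MSCs, limma-trend called 0 promoter genes and 7 nearest genes higher. Slc14a1 turned to −0.45 under limma-trend. Of the genes nearest to 3 or more members, too few to set against the background, 1 of 2 tested was lower in fBM-MSCs (Zfp503), 1 of 2 in vBM-MSCs (Kcnab1), and the 1 tested in P-MSCs (Naa20) was higher, with backgrounds of 18.7%, 9.49% and 22.3%. Above 15 each of these was 0, and within 100 kb 2 were lower in vBM-MSCs and 1 in P-MSCs.

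Leaving out 1 library at a time gave 10 to 13, 0 to 2, 5 to 6 and 15 to 19 promoter genes lower, and 6 to 7, 1 to 2, 0 to 1 and 3 to 4 higher. Nearest genes were 102 to 118, 31 to 83, 31 to 46 and 136 to 162 lower, and 52 to 65, 37 to 76, 10 to 18 and 41 to 62 higher. Without vBM-MSC replicate 1 the vBM-MSC counts were 31 and 37 for nearest genes and 2 for promoter genes lower, and without vBM-MSC replicate 2 promoter genes were 0 lower and 2 higher. Without A-MSC replicate 3 no promoter gene was higher in A-MSCs (0). Genes nearest to 3 or more ranged from 0 to 1 lower and 0 to 1 higher in fBM-MSCs and 0 to 2 lower in vBM-MSCs. The fBM-MSC call was lost without fBM-MSC replicate 2, vBM-MSC replicate 1, or P-MSC replicate 1 or 3, and a gene was called higher without fBM-MSC replicate 3. The cause of these changes was not tested beyond the smaller numbers of genes or samples.

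Replicate numbers did not pair the libraries: 15 same-numbered pairs correlated at −0.0279 to 0.125, and 30 other pairs at −0.125 to 0.109. With the replicate block, promoter genes lower were 15, 1, 6 and 17, and nearest genes lower 121, 67, 42 and 154. Of 512 values of 32 named genes under alternatives, 482 kept their direction and call, 29 (in 11 genes) lost the call, and 1 reversed. Pooled peak lists give no replicate error for any region.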
